A study of Mus musculus with 16 samples.

Results

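The 34 genes described here encode the parts of the mouse proteasome around its 20S core, and were taken by name from a fixed list of symbols. They comprise 6 ATPases and 4 other subunits of the base and 8 subunits of the lid, which together make up the 18 subunits of the 19S regulatory particle in this list, plus 3 chaperones of 19S assembly, 2 deubiquitinases, 4 activators and 1 inhibitor of the core, 5 factors of 20S assembly and the transcription factor Nfe2l1. They account for 36 of the 28618 entries in the expression table, because Psmd10 and Psmg1 have 2 entries each. RNA was sequenced from WT and Psma7 cKO oocytes at the germinal vesicle (GV) stage, before the meiotic divisions, and from ovulated metaphase II (MII) eggs, with 4 libraries in each of the 4 groups. The cKO combines floxed Psma7 alleles with Zp3-Cre (Psma7 fl/fl;Zp3-Cre), whose promoter drives CRE in growing oocytes only, so follicular cells keep the gene and PSMA7 protein made earlier can persist. All females were 3 to 4 weeks old and received 5 IU of pregnant mare serum gonadotropin. GV oocytes were collected 44 h later, whereas females used for eggs then received human chorionic gonadotropin and their eggs were collected 14 to 16 h after it, with cumulus cells digested away by 0.3% hyaluronidase. The labels give 5 pooled oocytes per library and the study's methods a larger pool. The study reports that some ovulated cKO oocytes had not extruded the first polar body, stayed at the GV stage or stopped at telophase I. The labels list all egg libraries as MII and do not say whether such cells entered the cKO pools.

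The 20S core is a barrel with its proteolytic sites inside, and Psma7 encodes an α subunit of its outer rings. The 19S particle caps the barrel: its lid and base bind ubiquitin chains and remove them, and the ring of ATPases unfolds the substrate and threads it into the core. Other caps, the PA28 and PA200 activators, open the core without ATP, and dedicated chaperones build both particles. Nfe2l1, also called NRF1, raises transcription of proteasome genes in somatic cells when proteasome activity is low. A fully grown oocyte is transcriptionally silent, so its mRNA is stored at the GV stage and much of it is degraded during maturation.

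Nfe2l1 acts through antioxidant response elements, and the promoters were read for the letters TGACNNNGC and TGAGNNNGC on both strands of a 300-base window, from 250 bases before to 50 after each RefSeq transcript start (GRCm38.p6). The 35 member windows belong to 29 genes, with 5 windows for Nfe2l1 and 2 each for Psmc2 and Psme2, some of them overlapping, so a gene was counted once if any of its windows matched. One or the other was present in 12 of 29 member genes (41.4%) and in 30.8% of 27025 genes. The stricter TGACNNNGC was present in 6 (20.7%) against 14.0% of all, and CCAAT in 8 (27.6%) against 41.1%. These are matches of letters, not measured sites. No window was found for Psmc3, Psmd3, Psmd7, Usp14 or Psmg2. The windows below belong to the 2 genes whose genotype difference changed with stage (Psmd6, Psmd8), to the 2 genes higher in cKO eggs that hold TGACNNNGC (Adrm1, Psmd9) and to the member with the largest rise on maturation (Psme4). They are printed 5′ to 3′ on the strand of the gene, and capitals mark TGACNNNGC, which in Psme4 lies on the opposite strand.
Psmd6, chr14:14120896-14121195, minus strand: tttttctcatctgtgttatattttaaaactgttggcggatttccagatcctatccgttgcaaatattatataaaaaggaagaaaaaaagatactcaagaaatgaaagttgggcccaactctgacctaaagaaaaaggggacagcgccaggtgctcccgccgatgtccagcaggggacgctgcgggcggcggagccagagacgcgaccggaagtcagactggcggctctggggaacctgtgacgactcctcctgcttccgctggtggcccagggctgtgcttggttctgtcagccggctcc
Psmd8, chr7:29180624-29180923, minus strand: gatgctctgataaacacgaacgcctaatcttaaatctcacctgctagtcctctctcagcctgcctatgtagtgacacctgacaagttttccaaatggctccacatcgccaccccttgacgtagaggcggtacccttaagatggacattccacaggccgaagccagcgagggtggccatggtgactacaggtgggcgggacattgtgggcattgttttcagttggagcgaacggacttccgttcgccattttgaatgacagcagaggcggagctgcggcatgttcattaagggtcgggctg
Adrm1, chr2:180171338-180171637, plus strand: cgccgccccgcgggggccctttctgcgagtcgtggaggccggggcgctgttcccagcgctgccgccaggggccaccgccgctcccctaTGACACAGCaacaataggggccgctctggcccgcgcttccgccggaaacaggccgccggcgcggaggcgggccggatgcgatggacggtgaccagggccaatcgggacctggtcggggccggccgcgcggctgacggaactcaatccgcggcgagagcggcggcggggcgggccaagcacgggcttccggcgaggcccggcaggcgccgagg
Psmd9, chr5:123227940-123228239, plus strand: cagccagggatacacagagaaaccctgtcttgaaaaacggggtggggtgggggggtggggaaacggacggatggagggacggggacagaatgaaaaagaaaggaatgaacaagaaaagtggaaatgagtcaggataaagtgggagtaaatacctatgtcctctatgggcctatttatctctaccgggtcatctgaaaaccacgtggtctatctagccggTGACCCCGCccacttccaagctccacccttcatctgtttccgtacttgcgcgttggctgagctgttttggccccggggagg
Psme4, chr11:30771525-30771824, plus strand: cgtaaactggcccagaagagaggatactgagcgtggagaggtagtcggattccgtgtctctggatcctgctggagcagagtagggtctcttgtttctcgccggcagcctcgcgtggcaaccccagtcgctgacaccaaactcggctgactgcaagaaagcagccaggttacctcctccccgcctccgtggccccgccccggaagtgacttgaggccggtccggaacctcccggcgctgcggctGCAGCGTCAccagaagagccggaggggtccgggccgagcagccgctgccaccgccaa
The matches began at base -162 from the start in Adrm1, -31 in Psmd9 and -7 in Psme4. Neither the Psmd6 nor the Psmd8 window held either set of letters. TGACNNNGC was also absent from the windows of Psmd4, Psmd5 and Psmg3, which were higher in cKO eggs too. A link of these letters to the egg values was not tested.

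FPKM, fragments per kilobase of transcript normalised to the mapped fragments, measures a transcript's share of a library relative to its length. Depth was estimated from the smallest FPKM steps at 10.5 to 15.7 M fragments per library. All 16 oocyte marker genes examined were at 1 FPKM or more on average in each group. The 18 cumulus and granulosa genes summed to 13.9 to 18.5 FPKM per library, and 5 immune genes to 1.14 to 10.95 FPKM. The highest immune sum was in WT egg library 1, where Lyz2 was at 8.88 FPKM, against at most 0.0717 FPKM in the other WT egg libraries. Psma7 itself was at 165 ± 25.3 FPKM (SD, n = 4) in WT and 14.6 ± 2.82 FPKM in cKO GV oocytes, and at 126 ± 32.1 and 39.7 ± 20.2 FPKM in eggs (two-sided exact permutation p = 0.0286 at each stage, the smallest that 4 against 4 libraries allow). A set of 395 transcripts outside the list was chosen for a fall over 10-fold from GV to MII in WT, a choice that uses the WT egg values and so holds their shares low, but not those of the cKO. The set summed to 5.92, 6.78, 6.20 and 6.04% of their GV level in the 4 WT egg libraries and to 12.6, 8.79, 34.4 and 19.04% in cKO egg libraries 1 to 4. Library 3 was thus the highest of the cKO eggs, and it is also the highest cKO egg library for 21 of 31 member entries (67.7%) against 34.1% of all 9492 entries tested.

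Members spanned widely in level. Psmd4 (RPN10), a ubiquitin receptor of the base, was the most abundant at a mean of 319 FPKM over the 16 libraries, followed by the lid subunit Psmd8 (RPN12) at 159.7 FPKM and by Psmd5, a base assembly chaperone, at 143 FPKM. Psme1, the PA28α subunit, was the least abundant. It was listed at 0, 0, 0.149 and 0.0911 FPKM in WT GV oocytes, at 0.160, 0.140, 0.0654 and 0 FPKM in cKO GV oocytes and at 0 in all 8 egg libraries. Its partner Psme2 (PA28β) averaged 5.26 FPKM, but 75.9% of the 31-base stretches of the related Psme2b gene occur in it, so reads of the pair may not be separable. Psmg2, a chaperone of α-ring assembly, was next to last, at 1.05, 0.472, 0.617 and 0.336 FPKM in WT and 0.886, 0.516, 0.845 and 0.538 FPKM in cKO GV oocytes and at 0.0764, 0.129, 0.264 and 0.358 FPKM in WT eggs. Its partner Psmg1 averaged 133 FPKM. Psme1, Psmg2 and the second entries of Psmd10 and Psmg1 lay under the filter of a mean of 1 FPKM and were tested in no comparison. Psmd13 (RPN9), a lid subunit at 5.25 FPKM on average, was tested in 4 of the 5 comparisons, without the contrast of the 2 egg groups. The plot of FPKM by library shows the 32 members other than Psme1 and Psmg2.

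**Figure D1:**
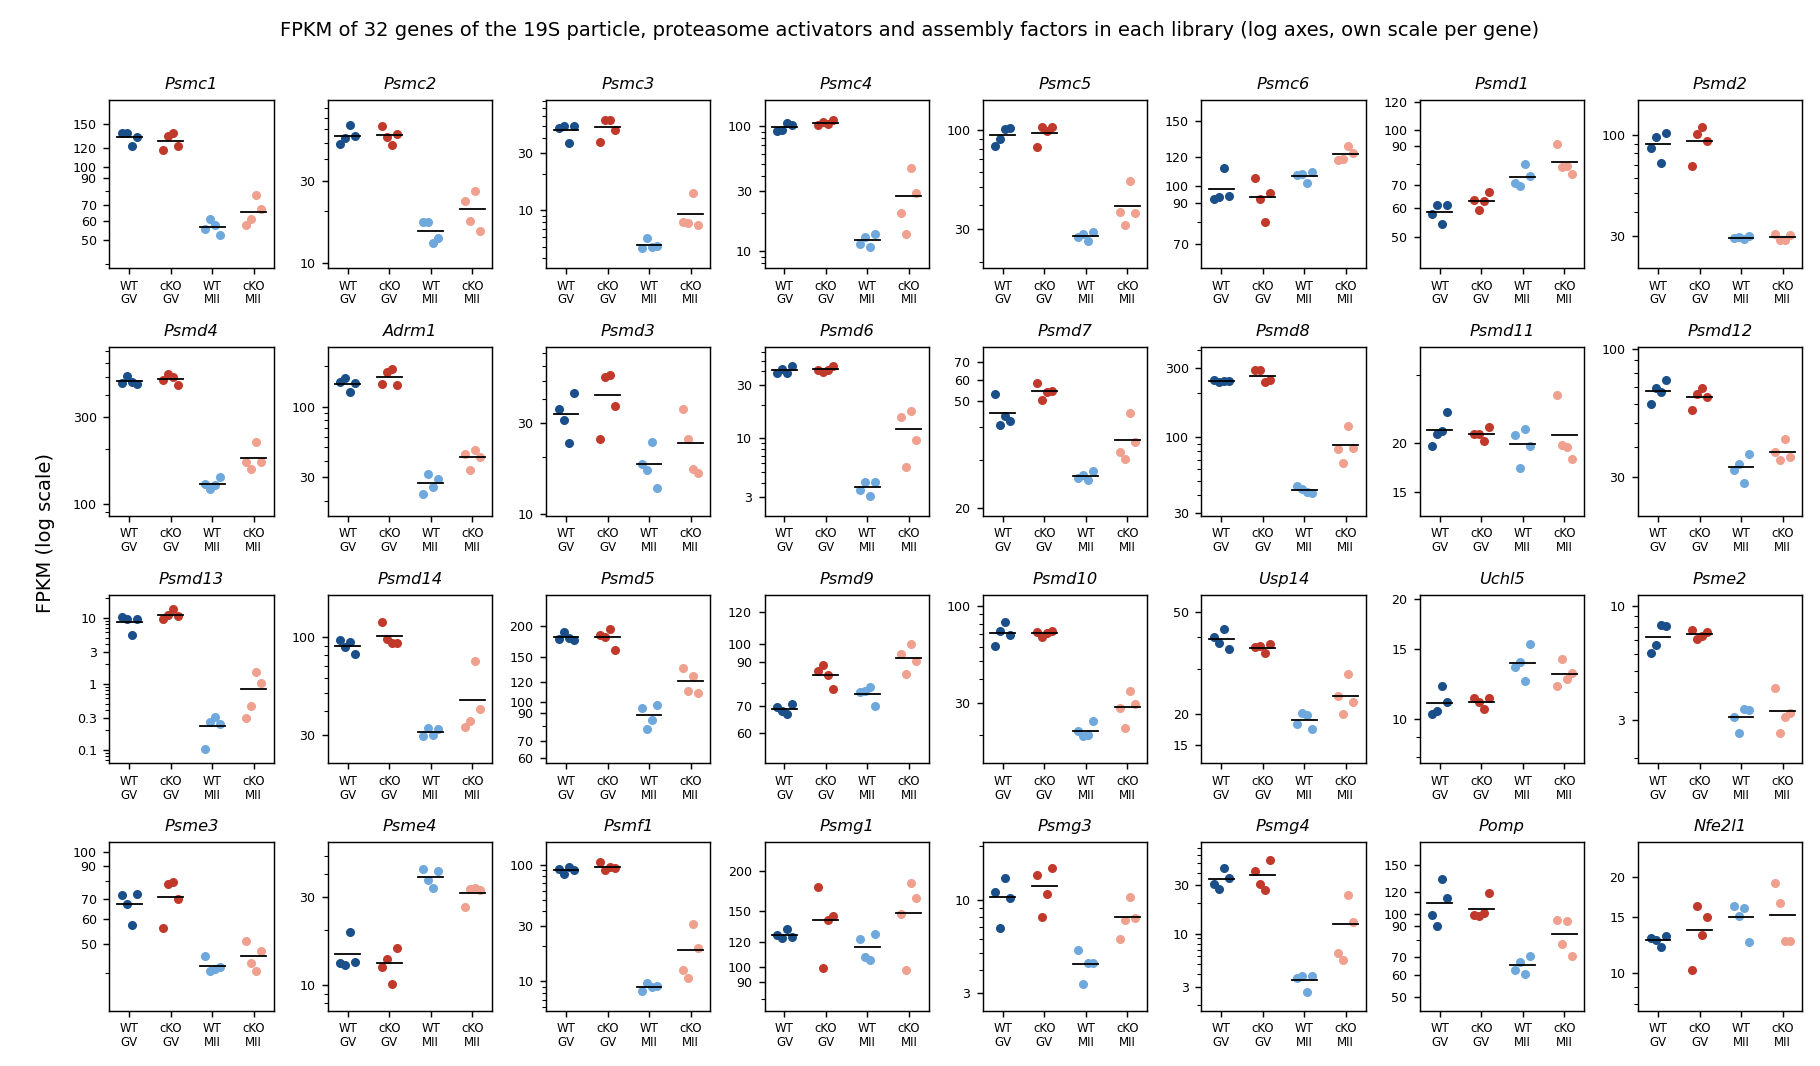
FPKM (log axis, own scale per gene) in each of the 16 libraries for the 32 members with a mean of at least 1 FPKM, with points for libraries and lines for the means of 4. Most members are lower in MII eggs than in GV oocytes, and Psme4 is higher. For 16 of the 31 members tested in eggs, every cKO egg library lies above every WT egg library, Psmd6, Psmd8 and Psmg4 among them. The share over all 9492 entries tested is 13.6%.

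The first comparison asks how the transcripts of the regulatory parts change as a WT oocyte matures. Of the 32 members tested, 24 fell and 3 rose (limma with Benjamini-Hochberg adjustment over 10475 entries, adjusted p under 0.05). Over all entries 52.4% fell and 26.1% rose. The median log2 change was -1.22 over members and -0.44 over all entries tested. FPKM in a pool does not tell fewer molecules per cell from fewer contributing cells, and a share can rise when other transcripts are lost. Rescaling libraries by the median ratio of expressed genes shifted the median of all entries by 0.23, and with it Psmd11 and Psmg1, neither of which passed the test, changed from a small fall to a small rise. Psmc6, Psmd9 and Nfe2l1 then passed the test as rises (adjusted p = 0.00500, 0.000761 and 0.00161), which made 6 in place of 3. Rescaling also raised the number of all entries with a positive change, called or not, from 3827 to 4608. How many of these passed the test is not given here.

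Of the base ATPases, which form the unfolding ring, 5 of 6 fell, with log2 changes from -1.22 (Psmc1) to -3.13 (Psmc3). Psmc3 (RPT5) was at 48.0, 50.3, 35.9 and 49.9 FPKM in WT GV oocytes and at 4.90, 5.90, 4.96 and 5.10 FPKM in WT eggs, a log2 change of -3.13 (SE 0.13). The groups lay far apart, with 11.3% of the GV mean left. Psmc6 (RPT4) was the exception, at a log2 change of 0.12 (adjusted p = 0.179). Among the other base subunits Psmd2, Psmd4 and Adrm1 fell and Psmd1 rose. Psmd4 was at 465, 506, 473 and 462 FPKM in WT GV oocytes and at 128, 120.1, 127 and 140.5 FPKM in WT eggs, so 27.1% remained. Adrm1 (RPN13), another ubiquitin receptor, went from 152, 162, 128 and 148 FPKM to 22.7, 31.6, 25.6 and 29.4 FPKM, or 18.5%. Psmd1 (RPN2), a scaffold of the base, was at 57.9, 61.2, 54.4 and 61.5 FPKM and then at 70.7, 69.3, 80.0 and 73.9 FPKM, a log2 rise of 0.32 (SE 0.08, adjusted p = 0.00308). Every WT egg library was above every WT GV library for Psmd1, while for Psmd4 and Adrm1 every one was below.

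In the lid, which carries the deubiquitinase Psmd14, 7 of 8 subunits fell and Psmd11 did not pass the test (log2 change -0.12). Psmd6 (RPN7) had the largest fall on the floored log2 scale, though Psmd13 was left at a lower share of its GV mean. It was at 38.7, 41.7, 38.2 and 44.2 FPKM in WT GV oocytes and at 3.43, 4.06, 3.02 and 4.04 FPKM in WT eggs, a log2 change of -3.49 (SE 0.12) that left 8.94%. Psmd8, the most abundant lid transcript, went from 245, 239, 243 and 243 FPKM to 46.0, 43.8, 41.8 and 41.3 FPKM, leaving 17.8%. The 4 GV libraries and the 4 egg libraries each agreed closely with one another for Psmd8. Psmd13 fell from 10.3, 9.64, 5.52 and 9.45 FPKM to 0.103, 0.263, 0.313 and 0.243 FPKM. Since values under 1 FPKM were set to 1, its log2 change of -3.08 understates the fall (with a floor of 0.1 FPKM it is -5.32), and 2.64% of the GV mean remained on the unfloored scale. Exons of Psmd13 overlap Sirt3 on the opposite strand by up to 329 bases. Sirt3 averaged 1.54 FPKM, above each WT egg value of Psmd13, and strand use in counting was not given. Psmd7 (log2 change -0.77) and Psmd3 (-0.87) were the lid transcripts with the smallest falls.

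The factors that act on the particles moved in different directions. Psme4, which encodes the PA200 activator, was at 13.2, 12.9, 19.5 and 13.3 FPKM in WT GV oocytes and at 42.3, 37.2, 33.5 and 41.4 FPKM in WT eggs. Its egg mean was 262% of its GV mean, a log2 rise of 1.40 (SE 0.14, adjusted p = 4.60e-06), and the groups did not overlap. Psme2 and Psme3, which encode PA28β and PA28γ, fell by 1.22 and 0.67 on the log2 scale. Psmf1 (PI31), known as an inhibitor of the core in vitro, fell from 91.1, 84.1, 96.6 and 90.6 FPKM to 8.31, 9.77, 9.01 and 9.09 FPKM, or 9.98% of its GV mean. PA200 and PI31 transcripts therefore changed order: Psmf1 was above Psme4 in each WT GV library and below it in each WT egg library. Besides the lid deubiquitinase Psmd14, which fell (log2 change -1.53), 2 deubiquitinases associate with the 19S particle, and these also went opposite ways. Uchl5 (UCH37) was at 10.2, 10.5, 12.1 and 11.0 FPKM in WT GV oocytes and at 13.5, 13.9, 12.4 and 15.4 FPKM in WT eggs, a log2 rise of 0.33 (SE 0.10, adjusted p = 0.0117). Usp14 fell by 1.05 on the log2 scale. Exons of Usp14 overlap Thoc1, at 46.4 FPKM on the opposite strand, by up to 2169 bases, and strand use in counting was not given in the sources used here.

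Among assembly factors the falls were uneven. Psmg4 (PAC4), a chaperone of the α ring, was at 30.8, 27.7, 44.1 and 35.7 FPKM in WT GV oocytes and at 3.65, 3.83, 2.65 and 3.83 FPKM in WT eggs, or 10.1% of its GV mean. Psmg3 (PAC3), which acts as a pair with it, went from 11.0, 6.90, 13.2 and 10.2 FPKM to 5.24, 3.34, 4.38 and 4.38 FPKM, leaving 42.0%. The 2 genes were thus left at different shares although both fell without overlap. Pomp, the maturation factor of the core, fell by 0.73 on the log2 scale, and Psmg1 (PAC1) did not pass the test (-0.13, adjusted p = 0.157). Of the 19S chaperones, Psmd10 (gankyrin) fell by 1.74 and Psmd5 (S5b) by 1.03. Psmd5 was at 178, 189.5, 179 and 175 FPKM in WT GV oocytes and at 94.1, 77.7, 84.9 and 97.5 FPKM in WT eggs. Psmd9 (p27) was at 69.8, 68.1, 66.9 and 70.9 FPKM and then at 76.0, 76.5, 78.0 and 70.2 FPKM, groups that overlapped (log2 change 0.12, adjusted p = 0.122). Nfe2l1 likewise did not pass the test, at 12.7 ± 0.439 FPKM and 15.0 ± 1.71 FPKM (SD, n = 4, log2 change 0.23, adjusted p = 0.0629).

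**Figure D2:**
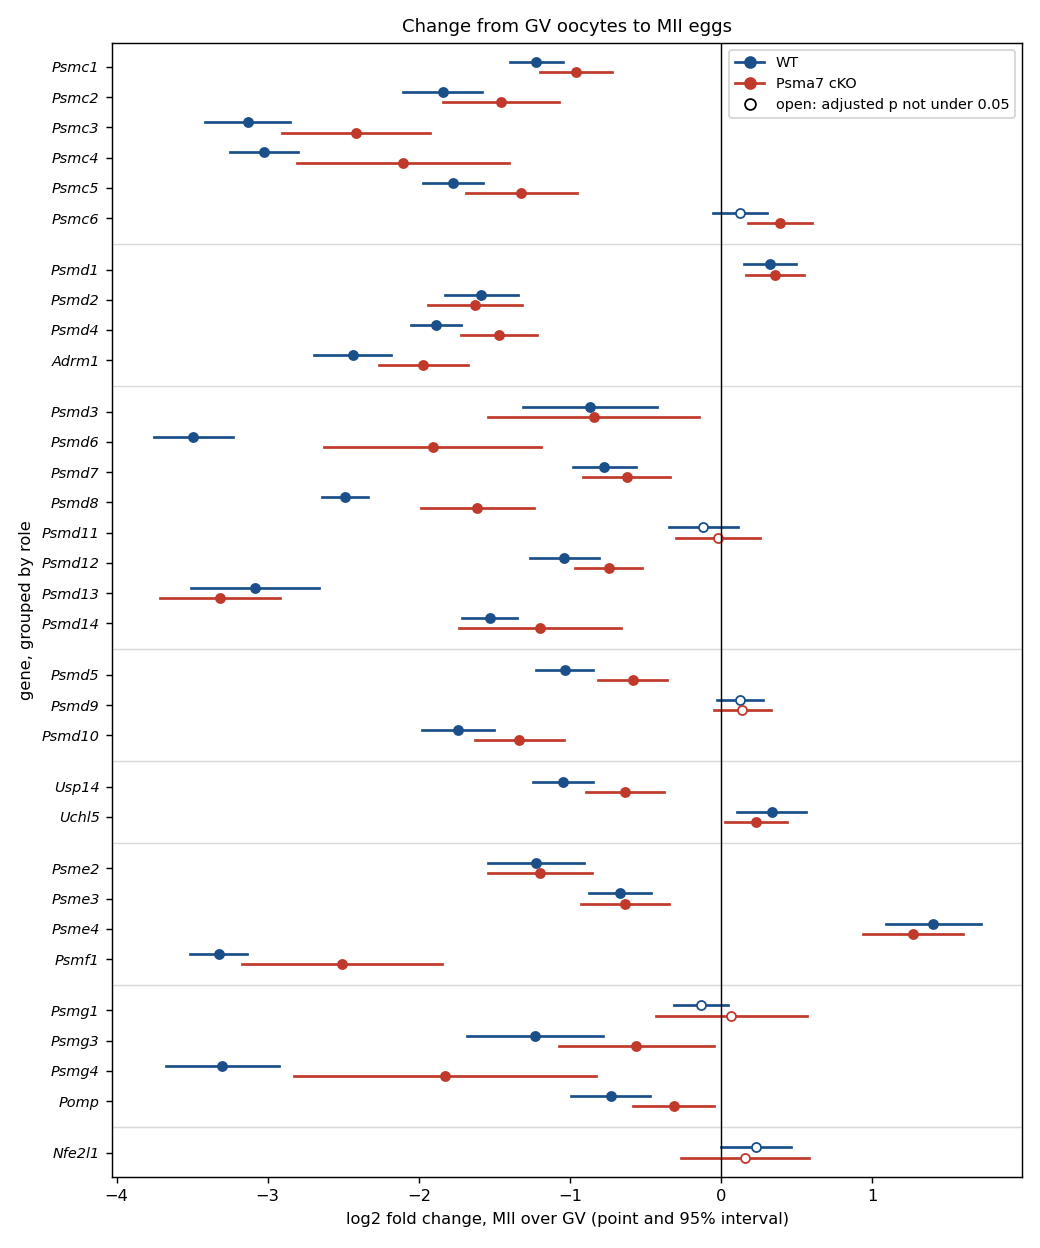
Log2 fold change from GV to MII (horizontal axis, point with 95% interval) for the 32 members tested in WT and in Psma7 cKO, filled where the adjusted p is under 0.05 and grouped by role. In WT, 24 members lie below 0 with a filled point and 3 above, and in the cKO 24 and 4.

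As a whole the 19S transcripts made up less of the library after maturation. The 18 subunits summed to 1819.9, 1886, 1804 and 1870.1 FPKM in WT GV oocytes and to 650.1, 659.7, 650.5 and 673 FPKM in WT eggs, so 0.357 of the GV mean remained. The subunits of the 20S core without Psma7 summed to 1465, 1421, 1997 and 1584 FPKM and then to 1667, 1673, 1492 and 1480.3 FPKM, ranges that overlapped. The ratio of the 19S sum to the 20S sum was 1.16 ± 0.183 (SD, n = 4) in WT GV oocytes and 0.419 ± 0.0316 in WT eggs. It was 1.26 ± 0.211 in cKO GV oocytes and 0.457 ± 0.0335 in cKO eggs, so the genotypes overlapped at each stage. Core genes were far from uniform beneath this sum. Of the 13 tested, 7 fell and 2 rose in WT, where 52.4% and 26.1% of all entries did, and Psmb7, Psmb4, Psmb5 and Psma6 were the calls with the smallest p, with log2 changes of -5.23, -3.88, -3.79 and -3.43. By a 3-fold rule on group means, 13 members were lower in WT eggs, against 27.5% of the 8404 entries able to pass it. None were higher, against 1.33%.

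**Figure D3:**
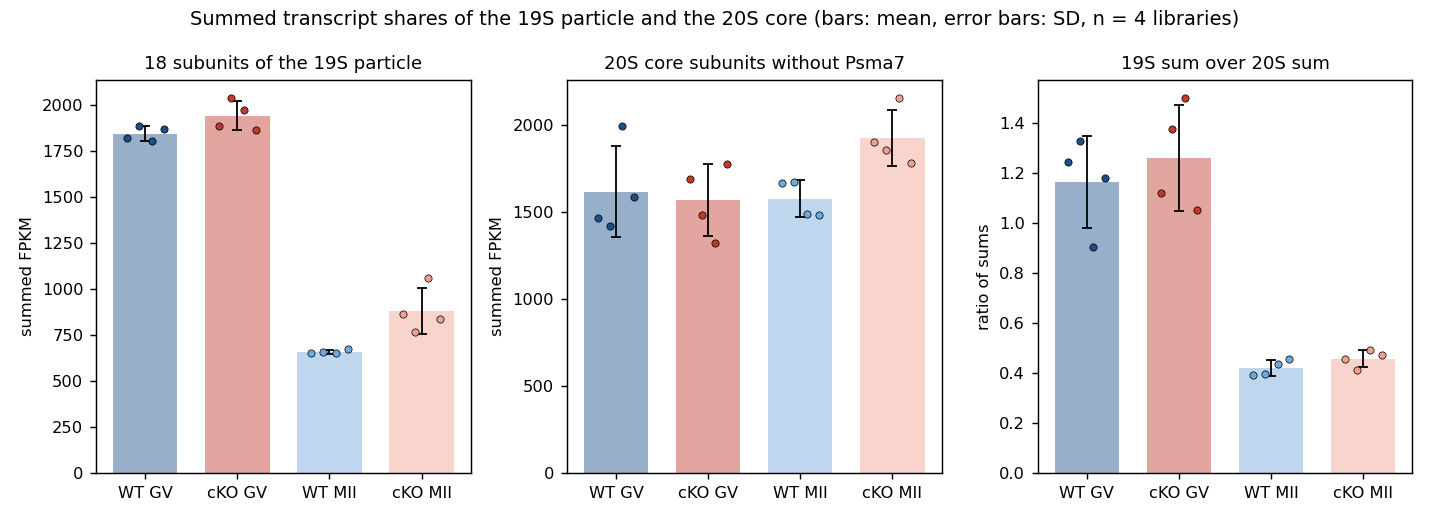
Summed FPKM of the 18 subunits of the 19S particle, summed FPKM of the 20S core subunits without Psma7, and the ratio of the 2 sums, with bars for the mean and error bars for the SD of 4 libraries (points). The 19S sum and the ratio are lower in both egg groups than in both GV groups, while the 20S sums of WT GV oocytes and WT eggs overlap. The 20S sums of cKO eggs lie above those of WT eggs.

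Maturation of cKO oocytes gave nearly the same counts, with 24 of 32 members lower and 4 higher, against 51.0% lower and 23.0% higher over 10748 entries. The 4 that rose were Psme4 (log2 change 1.27), Psmc6 (0.39), Psmd1 (0.36) and Uchl5 (0.23). Of these, Uchl5 passed in 1 of 8 fits with a library left out. With median-ratio rescaling 21 members were lower, without Psmd3, Psmg3 and Pomp, and 5 higher, with Psmd9 added. Over all entries, positive changes, called or not, then went from 3794 to 4519, and the shares passing the test are not given here. The values of the genotypes are given here side by side, and the test of their difference is the interaction over all 16 libraries, which Psmd6 and Psmd8 passed and Psmg4 (adjusted p = 0.140) and Psmf1 (adjusted p = 0.192) did not. The share of the GV mean left in eggs was 8.94% in WT and 29.3% in cKO for Psmd6, 17.8% and 33.3% for Psmd8, 10.1% and 32.6% for Psmg4, and 9.98% and 19.2% for Psmf1. It was 33.0% and 31.9% for Psmd2 (RPN1) and 62.7% and 64.1% for Psme3. The median change over members was -0.90, and -0.42 over all entries tested. By the 3-fold rule 9 members were lower, against 21.5% of the entries able to pass it.

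At the GV stage the question is whether loss of Psma7 is accompanied by a change in the other proteasome transcripts. None of the 32 members passed the limma threshold, where 0.0994% of 11062 entries were higher and 0.0181% lower (11 and 2 entries, or 5 and 2 with median-ratio rescaling). At an unadjusted p under 0.05, 2 of 32 members were higher and 0 lower, against 7.62% and 3.06% of all entries. The 2 were Psmd9 (log2 difference 0.28, adjusted p = 0.211) and Psmd7 (0.28, adjusted p = 0.338). Psmd9 was at 85.4, 88.4, 83.5 and 77.2 FPKM in cKO GV oocytes, above all 4 WT libraries given earlier, and no other member was without overlap. For entries of all genes, 4.25% lay higher without overlap and 2.42% lower. The 18 subunits of the 19S particle summed to 1889, 2037, 1976 and 1866 FPKM in cKO GV oocytes, 1.05 times the WT mean, and the groups overlapped. The most abundant members were close: Psmd4 was at 481, 524, 505 and 455 FPKM and Psmd5 at 185, 181, 196 and 161 FPKM, ranges that include the 4 WT values of each gene. Psmd6 was at 41.5, 39.7, 41.0 and 44.2 FPKM (log2 difference 0.03, 95% interval -0.16 to 0.22) and Psmd8 at 289, 287, 239 and 245 FPKM (0.12, -0.07 to 0.32). Psmc3 was at 36.9, 55.9, 56.2 and 46.7 FPKM, Adrm1 at 147, 179, 189.7 and 146 FPKM and Psmd13 at 9.71, 11.2, 13.5 and 10.5 FPKM in cKO GV oocytes. All 3 overlapped with WT, as did Psmd1 (63.2, 59.4, 62.9 and 66.8 FPKM), Psme4 (12.6, 13.9, 10.2 and 15.9 FPKM) and Uchl5 (11.3, 11.0, 10.6 and 11.3 FPKM). Overlap was also seen for Psmf1 (105.5, 89.8, 95.1 and 94.2 FPKM), Psmg3 (13.7, 8.02, 10.8 and 14.95 FPKM) and Psmg4 (41.6, 30.6, 26.98 and 52.7 FPKM). For Nfe2l1 the interval was -0.23 to 0.39. No member passed the 3-fold rule, against 0.0479% higher and 0.0359% lower.

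In MII eggs 8 of 31 members were higher in the cKO and 0 lower, where 6.53% of 9492 entries were higher and 1.49% lower. They were the lid subunits Psmd6 and Psmd8, the base subunits Psmc3, Psmd4 and Adrm1, the 19S chaperones Psmd5 and Psmd9, and the α-ring chaperone Psmg3. The median log2 difference was 0.36 over members and 0.07 over all entries. With rescaling by the median ratio the member median was 0.29, 7 members were called, without Psmd9, and the split over all entries moved from 620 higher and 141 lower to 537 and 223. The cKO egg libraries also held more of the 395 decaying transcripts, as given above, and may have held cells short of MII. The part of either in the results on cKO eggs, the interaction included, was not tested. The calls depended on single libraries: 0 were made without WT library 1, 3 or 4 and 1 without WT library 2, while 2, 15, 4 and 4 were made without cKO library 1, 2, 3 or 4. All 8 differences stayed positive in each of these fits. Counts over all entries moved in the same way, from 620 higher to between 3 and 1024.

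Psmd8 had the smallest adjusted p. It was at 82.5, 66.7, 119.7 and 83.8 FPKM in cKO eggs, where WT eggs ranged from 41.3 to 46.0 FPKM, a log2 difference of 1.00 (SE 0.15, adjusted p = 0.0191). Psmd6 was at 15.6, 5.56, 17.8 and 9.74 FPKM in cKO eggs, against at most 4.06 FPKM in WT eggs, and had a log2 difference of 1.62 (SE 0.33, adjusted p = 0.0315). Both genes were higher in each cKO egg library than in any WT egg library, and for both the cKO libraries spread over a wider range than the WT libraries. Without cKO library 3 the differences were 0.84 for Psmd8 (adjusted p = 0.0154) and 1.39 for Psmd6 (adjusted p = 0.0469).

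The 3 base subunits that passed showed the same order at smaller size, and the other base subunits were not called. Psmc3 was at 7.96, 7.90, 13.9 and 7.63 FPKM in cKO eggs (log2 difference 0.80, SE 0.19, adjusted p = 0.0418), Psmd4 at 171, 156, 219 and 169.6 FPKM (0.46, SE 0.10, adjusted p = 0.0363) and Adrm1 at 44.5, 34.3, 47.8 and 42.4 FPKM (0.63, SE 0.13, adjusted p = 0.0329). Library 3 was the highest for all 3 genes, and no cKO value fell within the WT range. Without it, Psmc3 and Psmd4 still passed (adjusted p = 0.0337 and 0.0432) and Adrm1 did not (adjusted p = 0.0572). For Adrm1, 90.8% of the 31-base stretches of the copy Gm9774 (0.899 FPKM) occur in its transcripts.

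Among the chaperones, Psmd5 was at 136, 110.4, 127 and 109 FPKM in cKO eggs, above the highest WT egg at 97.5 FPKM (log2 difference 0.44, SE 0.10, adjusted p = 0.0359). Psmd9 was at 94.2, 84.0, 99.9 and 90.8 FPKM (0.29, SE 0.07, adjusted p = 0.0411), a difference like the 0.28 seen at the GV stage. Psmg3 was at 5.97, 7.65, 10.4 and 7.88 FPKM (0.87, SE 0.19, adjusted p = 0.0340). Each of these 3 genes was without overlap between the egg groups. None of them passed without cKO library 3 (adjusted p = 0.0698, 0.0837 and 0.0584). Exons of Psmd9 overlap the antisense gene Gm26745 by up to 1849 bases.

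A further 8 members did not overlap between the egg groups without passing the adjusted threshold, so that 16 of 31 were higher without overlap, against 13.6% of all entries, and 0 lower against 7.06%. Psmg4 had the largest difference of these, with 6.52, 5.51, 24.3 and 13.2 FPKM in cKO eggs (log2 difference 1.59, SE 0.42, adjusted p = 0.0510). Psmc4 (RPT3) followed at 1.04 (adjusted p = 0.0721) and Psmf1 at 0.90 (adjusted p = 0.0849), the latter with 12.5, 10.7, 31.3 and 19.5 FPKM. Pomp, Psmc5, Psmc6, Psmd7 and Psmd14 had differences between 0.19 and 0.50. By the 3-fold rule Psmd6 and Psmg4 were higher in cKO eggs, against 2.37% of entries, and neither without cKO library 3, and 0 were lower, against 0.0284%. The 18 subunits of the 19S particle summed to 864, 766, 1059 and 838 FPKM in cKO eggs. This was 1.34 times the WT mean, and 1.25 times without library 3. The 20S core without Psma7 summed to 1905, 1856, 2153 and 1780 FPKM in cKO eggs, 1.22 times the WT mean and above every WT egg library.

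Some members differed little between egg groups or pointed the other way. Psme4 was at 26.5, 33.1, 33.7 and 32.6 FPKM in cKO eggs, with the groups overlapping by 1 library (log2 difference -0.29, 95% interval -0.54 to -0.05, adjusted p = 0.108). Uchl5 was at 12.1, 14.1, 12.6 and 13.0 FPKM (-0.09, -0.30 to 0.12), and Psmd1 at 91.0, 78.3, 79.2 and 75.2 FPKM (0.14, -0.04 to 0.31). These 3 genes were the ones that rose on maturation in WT. The intervals of Psmd2 (-0.13 to 0.15) and Nfe2l1 (-0.34 to 0.36) lay on both sides of 0. Psmd13 was at 0.305, 0.451, 1.52 and 1.02 FPKM and Psmg2 at 0.129, 0.148, 0.702 and 0.144 FPKM in cKO eggs, too low to be tested.

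**Figure D4:**
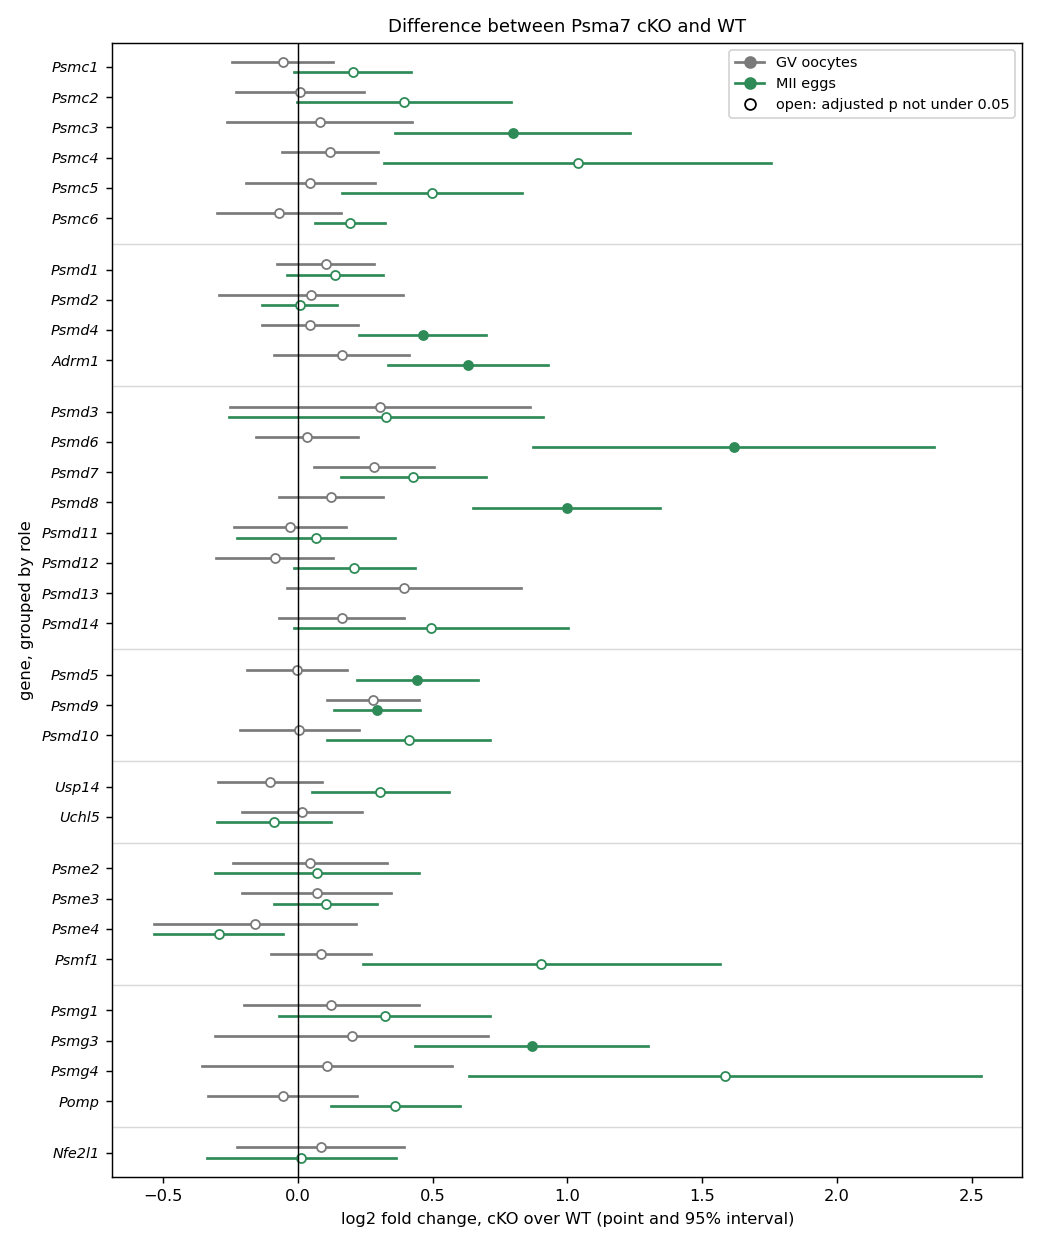
Log2 fold change of Psma7 cKO over WT (horizontal axis, point with 95% interval) in GV oocytes and in MII eggs, grouped by role and filled where the adjusted p is under 0.05. No GV point is filled, and 8 egg points are filled, all above 0 and from 0.29 (Psmd9) to 1.62 (Psmd6).

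The difference between stages was tested itself by the interaction term over all 16 libraries. Psmd8 (0.87, SE 0.18, adjusted p = 0.0324) and Psmd6 (1.58, SE 0.36, adjusted p = 0.0410) passed, 2 of 32 members, where 1.07% of 10615 entries passed in this direction and 0.188% in the other. Both also passed without cKO egg library 3 (0.72 and 1.36) or 4. Leaving out cKO egg library 2 raised the count to 9, and leaving out any other library lowered it, to 1 (WT GV 2, cKO GV 1, WT egg 2, cKO egg 1) or to 0 (WT GV 1, 3 and 4, cKO GV 2, 3 and 4, WT egg 1, 3 and 4). The share of all entries passing in each of these fits is not given here. At an unadjusted p under 0.05, 14 of 32 members had a positive and 0 a negative term, against 12.7% and 5.03% of all entries. For Psmd9 the term was 0.02 (95% interval -0.19 to 0.22). For the other 5 members called in eggs the adjusted p was between 0.0896 and 0.295, so a difference between stages was not shown for them.

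Other genes of the pathway were counted from lists. Of the 20S core subunits other than Psma7, 0 of 14 passed at the GV stage (0.0994% of all entries higher, 0.0181% lower) and 5 of 13 were higher in cKO eggs (6.53% of all entries), among them Psma1 (log2 difference 0.64), Psmb4 (1.88), Psmb5 (1.72) and Psmb7 (2.42). Of 21 other proteasome partners tested, 0 passed at the GV stage and 3 were higher in cKO eggs, against the same shares of all entries: Shfm1 (0.68), listed under the older symbol of the lid subunit Sem1, the proteasome-bound thioredoxin Txnl1 (0.40) and Zfand2a (0.53). In WT maturation 10 of these 21 partners fell and 4 rose, near or under the 52.4% and 26.1% of all entries, with Zfand2b (-5.05), Ipo9 (-2.37), Rad23b (-1.75) and Vcp (-1.08) at the smallest p.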

How the data were processed

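Smart-seq2 libraries of pooled mouse oocytes were analysed, 4 biological replicates in each of 4 groups assigned from the sample labels. The authors deposited 1 table of FPKM values, made with Cufflinks 2.2.1 and, per the submitters' processing notes, TopHat2 2.1.1 on mm10. The annotation and the use of strand were not given in the sources used here. The table holds 0 ERCC entries, so values are shares of a library and absolute amounts were not analysed. FPKM under 1 was set to 1 as in the study's methods, and log2 values were fitted across the whole table for entries averaging 1 FPKM or more in the compared libraries, with limma 3.58.1 (R 4.3.3, empirical Bayes with an intensity trend), 8 libraries per contrast and 16 for the interaction. P-values were adjusted over all entries tested by the Benjamini-Hochberg method, with a threshold of 0.05. A fold change on this floored scale understates changes of low transcripts. Group means of the floored values were also compared by a 3-fold rule, counted over entries whose mean exceeded 3 FPKM in either group. The threshold is that of the study, which does not say how group values were formed. Over all entries the rule called 4 higher and 3 lower in cKO GV oocytes, and 167 higher and 2 lower in cKO eggs. The study reports more transcripts in each case except the last. Psma7 was compared by a two-sided exact permutation test.

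Members and lists were chosen with earlier results of these data known. Values in every library are given for members past the threshold in a genotype contrast or the interaction, for the 3 largest falls and rises in WT on the floored log2 scale, and for the 3 highest and 3 lowest means. Other members are given by ranges and counts, and those named besides were chosen after their values were seen. Lists of 20S core genes and of proteasome partners name at most 4 genes, those called with the smallest p. Positions and transcripts came from GENCODE M21 and promoters from RefSeq, both GRCm38. Depth was estimated from whole-fragment steps in FPKM under 0.6, of which 29.1 to 32.6% lay within 0.05 of a whole number, so counts were not recovered. Replicates correlated within groups at r of 0.965 to 0.992 across entries. The limma step was tested on simulated data. Nothing in the labels ties a library to 1 animal, so p-values measure the spread between pools. Alternatives comprised a floor of 0.1 FPKM, 1 FPKM added, median-ratio rescaling, a filter at 5 FPKM or none, no trend, a replicate block, entries summed by name, all 16 libraries in one fit, 2-fold and geometric means for the fold rule, and each library left out. Other steps ran in Python 3.11.15 (pandas 2.3.3, numpy 2.4.6, scipy 1.17.1), with figures from matplotlib 3.10.9.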

Additional observations from a re-analysis of the deposited data

Results flagged for a closer look

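Among 126 groups of 4 libraries with a member at a mean of 1 FPKM or more, 7 (5.56%) had a library set apart by Dixon's test. Chance would set apart 1 in 20 independent groups, but the members share the same 16 libraries, so the groups are not independent. WT GV library 3 was apart for Psmc3 (35.9 FPKM, nearest other 48.0), for Psmc6 (111.8 FPKM, nearest other 94.3) and for Psme4 (19.5 FPKM, nearest other 13.3). For Psmc3, cKO egg library 3 was apart at 13.9 FPKM, where the nearest other library was at 7.96. Psme4 in cKO egg library 1 was low at 26.5 FPKM (nearest other 32.6), Psmg4 in WT egg library 3 was low at 2.65 FPKM (nearest other 3.65), and Pomp in cKO GV library 4 was high at 119 FPKM (nearest other 101). The cKO effect differed between stages by the interaction term of limma for Psmd6, 1.58 higher on the log2 scale in eggs than in GV oocytes (adjusted p = 0.0410), and for Psmd8, 0.87 higher (adjusted p = 0.0324).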

How the results depend on the processing

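Members called higher in cKO eggs numbered 8, and 5 with no filter, 4 with no trend, 14 with all 16 libraries in one fit and 0 to 15 with a library left out. Positive interaction calls numbered 2, and 1 with 1 FPKM added or no filter and 0 to 9 with a library left out. Members called higher in WT maturation numbered 3, and 3 to 4 with a library left out. With median-ratio rescaling they numbered 6, with Psmc6, Psmd9 and Nfe2l1 added. The share of all entries called higher with this rescaling is not given here. With 2-fold in place of 3-fold, 5 members were higher in cKO eggs in place of 2, 20 in place of 13 and 15 in place of 9 were lower in WT and cKO eggs after maturation, and 1 in place of 0 was higher in each. The shares over all entries were not counted at 2-fold, so these counts have no background beside them. With median-ratio rescaling at 3-fold, 1 member was higher in WT eggs. By the 3-fold rule 0 to 2 members were higher in cKO eggs with a library left out, 12 to 13 lower in WT maturation and 6 to 9 lower in cKO maturation. Called by limma in cKO maturation were 3 to 4 higher and 21 to 23 lower with a library left out. The Psma7 difference in eggs, -1.83, was the same with no filter but did not pass the threshold (adjusted p = 0.0549). With a library left out it ran from -2.10 to -1.38 and passed in 3 of 8 fits (limma adjusted p up to 0.101). No called log2 change of a member changed sign under an alternative, and the 0 calls at the GV stage held in each. Over all entries the 620 calls higher in cKO eggs became 354 with no filter, 101 with a replicate block and 1278 in one fit, and the 11 higher at the GV stage ranged from 3 with no filter to 96 in one fit. Entries with no variation at all were left out of the fit with no filter.

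Same-numbered libraries of 2 groups deviated together at r between -0.496 and 0.285. With 4 libraries per group, these values cannot show whether such libraries share more than a number, and the labels do not say. With a replicate block the Psma7 difference in eggs had an adjusted p of 0.0515, 1 member was called higher in cKO eggs and 0 in the interaction, and in cKO maturation 3 were higher, without Uchl5, and 21 lower, without Psmd3, Psmg3 and Pomp. The FPKM table gives no counts, so members under 1 FPKM (Psme1, Psmg2) cannot be judged at this depth.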
